A study of Mus musculus with 6 samples.

Results

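The expression of 40 genes of DNA replication and S phase was examined in crypts isolated from mouse intestine, with and without the chromatin remodelling subunit Arid1a. The genes were chosen by name for their place in the replication machinery, with earlier results of these data known. All 40 had at least 1 probe on the array, out of 23458 genes with a named probe. For each gene the brightest probe was used, and 39 of the 40 passed the filter on dim probes, the exception being Ccne2.

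Both groups of mice, of mixed strain, carry floxed Arid1a alleles (Arid1a f/f), in which recombination sites flank part of the gene. The 3 knockout samples (Villin-Cre; Arid1a f/f) also carry a Villin-Cre transgene, which deletes floxed sequence in cells of the intestinal epithelium, and the labels of the 3 control samples name no Cre. Ages and treatments are not given in the sources used here, nor is it stated that each sample is a different animal. The p-values therefore reflect variation among these 6 samples only, which may be technical. There was 1 one-colour array for each, and their number limits the precision. For knockout 2 and control 3 the labels contradict each other: source name and genotype give the opposite group to title and description, which are followed here. Controls 1 and 2 and knockouts 1 and 2 shared slide 1, and control 3 and knockout 3 shared slide 2, so that slide is a batch in these data.

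DNA replication starts at origins marked by the origin recognition complex, where Cdc6 and Cdt1 load the ring of Mcm proteins in G1 phase. At the start of S phase Cdc45 and the GINS proteins turn this ring into the moving helicase, polymerases copy the strands behind it, and the sliding clamp Pcna holds polymerases and nucleases on the DNA. Many of these genes are transcribed at the boundary of G1 and S phase under control of the E2F factors. In the intestine they are characteristic of the cycling stem and progenitor cells of the crypt.

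Levels below are log2 signals relative to the array's 75th percentile, and differences are knockout minus control on that log2 scale, ± SE, with n = 3 arrays per group. Tests were made in limma, with p-values adjusted by the Benjamini-Hochberg method over the 13496 genes tested, and a gene was called at an adjusted p under 0.05. Arid1a itself gave 3.71, 3.47 and 4.01 in the 3 controls in order and 2.20, 2.07 and 2.51 in the knockouts, a difference of -1.47 ± 0.21 (adjusted p = 0.00733). Knockout 2 was thus among the low arrays and control 3 among the high ones, as their titles give them. The 75th percentile lay at a processed signal of 279 to 295 on the control arrays, 292 on knockout 1, 206 on knockout 2 and 205 on knockout 3. The share of probes well above background was between 41.7% and 54.7% per array. Epithelial identity was clear, all 10 epithelial markers (Epcam, Vil1, Cdh1 and others) being measured. Of these, 8 had a positive difference and 2 a negative one. Cdx1 was called lower (-1.14 ± 0.27, adjusted p = 0.0376), and Cdx2 did not pass (-0.55 ± 0.16, adjusted p = 0.0626).

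The promoters of 6 genes are shown first, because matches to E2F motifs were far more frequent in the replication genes than among the genes tested, and because the 6 span the range of response. Each is the stretch of 200 bases before the RefSeq start, 5′ to 3′ on the strand of the gene, build GRCm38.p6. Capitals mark matches to TTTCCCGC, TTTCGCGC, TTTGCCGC or TTTGGCGC, or to these letters on the other strand. Mcm6 (chr1:128359706-128359905, minus strand) and Mcm5 (chr8:75109309-75109508, plus strand) encode helicase subunits. Pola1 (chrX:93632156-93632355, minus strand) encodes the catalytic subunit of the priming polymerase and Cdc6 (chr11:98907951-98908150, plus strand) the loading factor. Gins3 (chr8:95633359-95633558, plus strand) had one of the smallest differences, and Rrm2 (chr12:24708054-24708253, plus strand) was the 1 gene with a higher mean in the knockout group.
Mcm6: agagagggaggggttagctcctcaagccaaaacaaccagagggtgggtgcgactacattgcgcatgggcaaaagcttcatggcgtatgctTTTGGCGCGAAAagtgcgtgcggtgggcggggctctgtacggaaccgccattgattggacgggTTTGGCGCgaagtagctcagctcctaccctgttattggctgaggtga
Mcm5: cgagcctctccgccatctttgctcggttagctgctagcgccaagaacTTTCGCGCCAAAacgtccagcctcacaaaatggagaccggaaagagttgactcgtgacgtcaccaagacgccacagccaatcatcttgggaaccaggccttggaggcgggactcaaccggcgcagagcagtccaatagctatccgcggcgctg
Pola1: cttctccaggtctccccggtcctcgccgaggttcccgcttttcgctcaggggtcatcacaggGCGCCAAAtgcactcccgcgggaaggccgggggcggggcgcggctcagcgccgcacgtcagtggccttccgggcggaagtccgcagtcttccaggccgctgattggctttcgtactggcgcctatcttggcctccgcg
Cdc6: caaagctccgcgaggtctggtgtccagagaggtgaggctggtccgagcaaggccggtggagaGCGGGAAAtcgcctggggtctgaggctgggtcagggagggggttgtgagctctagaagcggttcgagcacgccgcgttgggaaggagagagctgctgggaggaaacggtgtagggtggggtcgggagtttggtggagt
Gins3: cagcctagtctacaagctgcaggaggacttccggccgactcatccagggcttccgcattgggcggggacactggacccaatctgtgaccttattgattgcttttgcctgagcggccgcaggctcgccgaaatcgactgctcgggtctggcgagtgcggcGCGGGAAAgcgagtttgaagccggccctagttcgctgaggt
Rrm2: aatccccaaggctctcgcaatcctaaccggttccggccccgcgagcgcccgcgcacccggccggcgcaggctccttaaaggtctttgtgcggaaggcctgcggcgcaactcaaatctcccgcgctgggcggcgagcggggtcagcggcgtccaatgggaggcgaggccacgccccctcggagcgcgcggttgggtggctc

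In the Mcm6 promoter a pair of overlapping matches began 110 and 106 bases before the start and another match 47 bases before it. Mcm5 had an overlapping pair, at 153 and 149 bases before the start, and the matches of Pola1, Cdc6 and Gins3 began 138, 138 and 41 bases before it. The Rrm2 stretch held none of these letters.

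The knockout group had the lower mean for 38 of the 39 replication genes, but no single gene passed the test. In limma 0 were called in either direction, where 7.62% of all genes were called lower and 7.27% higher. At an unadjusted p under 0.05, 9 of 39 were lower and 0 higher, against 18% and 16.2% of all genes. The median difference over the 39 was -0.63, beside -0.01 over all genes tested, and single genes ranged from -1.41 to 0.32. Fewer cycling cells and less of these messages per cell cannot be told apart in such bulk RNA.

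The spread behind that result lay within the knockout group. On knockout 1 the 39 genes were near the controls, 29 of them inside the range of the 3 control arrays, 5 below it and 5 above. On knockout 2, 36 genes lay below all 3 controls, and on knockout 3 all 39 did. Over all genes tested, 34.7%, 38.5% and 40.8% lay below all controls on knockouts 1 to 3. The mean deviation of the 39 genes from the control mean was 0.25, -0.17 and -0.08 for the 3 controls in order, and 0.06, -0.90 and -1.21 for the knockouts. Of the 39, 38 were lower on knockout 2 than on knockout 1, and 37 were lower on knockout 3 than on knockout 2. Set only against the controls of the same slide, the mean was 0.02, -0.94 and -1.13.

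**Figure D1:**
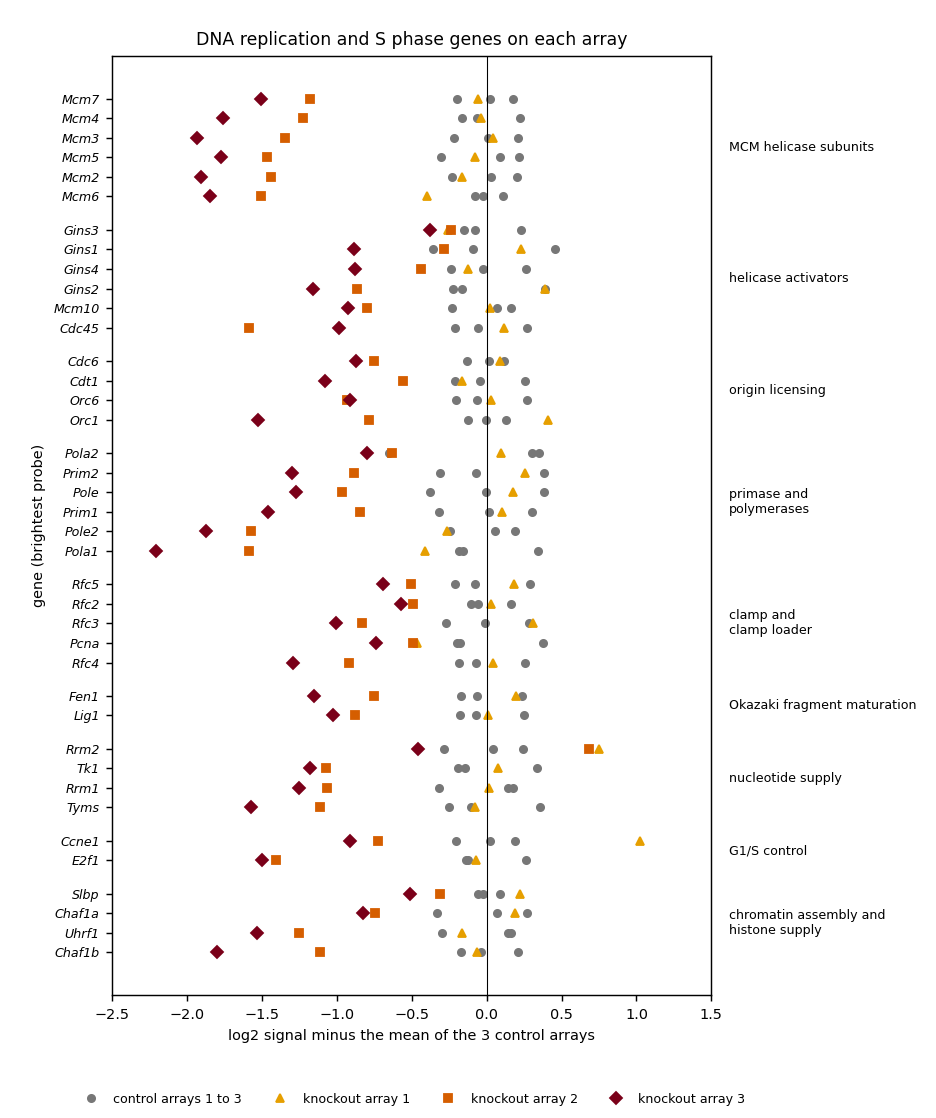
Log2 signal of each of the 39 replication genes minus the mean of its 3 control values, one row per gene, grouped by role; grey circles are control arrays 1 to 3 and coloured symbols the knockout arrays. Knockout 1 lies among the controls for 29 genes, while knockout 3 lies below every control for all 39.

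Several measured quantities moved with this split of the knockout arrays. The 75th percentile signal of knockout 1 was at the control level and that of knockouts 2 and 3 was lower. With the array median in place of that percentile, the mean deviation of the genes was -0.04, -1.20 and -1.57 on knockouts 1 to 3, and with quantile normalization 0.06, -0.93 and -1.25. The Arid1a signal did not follow the split, its deviation from the control mean being -1.53, -1.66 and -1.22. Without knockout 1, 30 of the 39 genes were called lower, as were 17.2% of all genes, and the median difference was -1.09. Without any other single array, 0 were called in limma, where 2.12% to 5.85% of all genes were called lower. With array weights, which were lowest for knockout 1, 22 were called lower, as were 18.9% of all genes. Without both arrays with contradicting labels, 0 were called (0 at an unadjusted p under 0.05), where 1.06% of all genes were called lower, and the median was -0.62.

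The Mcm2 to Mcm7 genes encode the 6 subunits of the replicative helicase ring, and their median difference, -1.09, was the lowest of the role groups. Mcm6 gave 5.47, 5.34 and 5.29 on the controls and 4.97, 3.86 and 3.52 on the knockouts. Every knockout array was below every control array, although knockout 1 lay much nearer to the controls. The difference was -1.25 ± 0.37 (adjusted p = 0.0638), a 2.38-fold lower mean, and the dimmer Mcm6 probe gave -1.43. Without knockout 1 the Mcm6 difference was -1.68 (adjusted p = 0.00405). It did not pass without knockout 2 (-1.12, adjusted p = 0.174) or without knockout 3 (-0.95, adjusted p = 0.132). Nor did it pass without both arrays with contradicting labels (-1.16, adjusted p = 0.304).

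Mcm2 gave 1.82, 1.38 and 1.65 on the controls and 1.45, 0.17 and -0.29 on the knockouts, a difference of -1.17 ± 0.43 (adjusted p = 0.114). Mcm5 gave 3.05, 2.53 and 2.92 against 2.75, 1.37 and 1.06, a difference of -1.11 ± 0.44 (adjusted p = 0.132). For both, knockout 1 was inside the control range and knockouts 2 and 3 were below it. Mcm3, Mcm4 and Mcm7 had the same order of arrays, with differences of -1.08 ± 0.48, -1.01 ± 0.42 and -0.91 ± 0.37. On knockout 3 the deviations of the 6 subunits from their control means lay between -1.93 (Mcm3) and -1.504 (Mcm7), and on knockout 2 between -1.51 (Mcm6) and -1.18 (Mcm7). On knockout 1 they lay between -0.40 (Mcm6) and 0.04 (Mcm3). The 3 probes of Mcm3 gave -1.08, -1.08 and -1.04.

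Cdc45, the GINS subunits and Mcm10 activate the loaded ring. Their differences were smaller, with a median of -0.51. Mcm10 gave 3.02, 2.63 and 2.92 on the controls and 2.88, 2.06 and 1.93 on the knockouts, a difference of -0.57 ± 0.28. Gins4 gave 2.70, 2.41 and 2.20 against 2.31, 1.999 and 1.55, a difference of -0.48 ± 0.24, and knockout 1 was again inside the control range for both genes. Cdc45 gave -0.81, -1.29 and -1.14 against -0.97, -2.67 and -2.07, so that, unlike most genes here, knockout 2 was lower than knockout 3. Its difference was -0.82 ± 0.42 on this probe and -0.44 on the dimmer one, the widest gap between probes of 1 gene.

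Gins3 was the steadiest of the group. It gave 4.71, 4.33 and 4.40 on the controls and 4.22, 4.24 and 4.10 on the knockouts. The groups did not overlap and the 3 knockout arrays were close together, but the difference of -0.29 ± 0.16 did not pass (adjusted p = 0.249). Gins1 and Gins2 had differences of -0.32 ± 0.34 and -0.55 ± 0.42. Of the 4 proteins of the GINS ring, Gins3 thus showed no gap between knockout 1 and the other two knockouts, whereas Gins2 lay at 0.39, -0.87 and -1.16 from its control mean on knockouts 1 to 3.

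The origin licensing genes had differences between -0.51 and -0.63. Cdt1, which brings the helicase to the origin, gave 4.13, 3.66 and 3.83 on the controls and 3.71, 3.32 and 2.79 on the knockouts, a difference of -0.60 ± 0.27. Orc6, a subunit of the origin recognition complex, gave 2.42, 1.94 and 2.09 against 2.18, 1.22 and 1.24, a difference of -0.61 ± 0.30. Knockouts 2 and 3 were below all controls for both genes. Orc1, the largest subunit of the complex, was above all controls on knockout 1 by its value of -0.13 against -0.41, -0.66 and -0.55, and lowest on knockout 3 at -2.07. Cdc6 had a difference of -0.51 ± 0.27 on its brighter probe and -0.86 on the other.

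The polymerase and primase genes held the largest single difference. Pola1, the catalytic subunit of polymerase alpha, gave 1.77, 1.24 and 1.27 on the controls and 1.01, -0.17 and -0.79 on the knockouts. The groups did not overlap. The difference of -1.41 ± 0.45, a 2.65-fold lower mean, was the largest of the 39 and did not pass (adjusted p = 0.0799), with -1.39 on the second probe. Pole2, an accessory subunit of polymerase epsilon, gave -0.06, -0.20 and -0.49 against -0.52, -1.82 and -2.12, a difference of -1.24 ± 0.41 (adjusted p = 0.0897). Its groups did not overlap either, although knockout 1 was only just below the lowest control.

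Prim1, the catalytic primase subunit, gave 3.02, 2.74 and 2.40 on the controls and 2.82, 1.88 and 1.26 on the knockouts, a difference of -0.73 ± 0.40. Pole and Prim2 had differences of -0.69 ± 0.40 and -0.64 ± 0.41. Pola2, the partner of Pola1, had -0.45 ± 0.35 and 2 of the 3 knockout arrays measured it well above background.

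Pcna, the sliding clamp, stood apart from most genes in that knockout 1 was as low as knockout 2. It gave 5.44, 4.86 and 4.88 on the controls and 4.60, 4.57 and 4.32 on the knockouts. The groups did not overlap, and the difference of -0.56 ± 0.21 did not pass (adjusted p = 0.112). It was nearly the same within slides, -0.57 on slide 1 and -0.56 on slide 2, and leaving out knockout 1 gave -0.61 (adjusted p = 0.0960). The Rfc genes encode the loader that opens the clamp. Rfc4 gave 3.63, 3.31 and 3.19 against 3.42, 2.46 and 2.09, a difference of -0.72 ± 0.35, and Rfc2, Rfc3 and Rfc5 had -0.35, -0.51 and -0.34. For these 4 loader genes knockout 1 was inside or above the control range.

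Fen1 and Lig1 trim and seal the fragments of the lagging strand. Lig1, the ligase, gave 3.96, 3.53 and 3.63 on the controls and 3.71, 2.83 and 2.68 on the knockouts, a difference of -0.63 ± 0.30. Fen1, the flap nuclease, gave 4.90, 4.49 and 4.59 against 4.86, 3.91 and 3.51, a difference of -0.57 ± 0.35. In both, knockouts 2 and 3 were below all controls and knockout 1 was among them.

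Of the genes for nucleotide supply, Tyms, Rrm1 and Tk1 followed the common order of arrays and Rrm2 did not. Tyms, thymidylate synthase, gave 4.25, 3.79 and 3.65 on the controls and 3.82, 2.78 and 2.32 on the knockouts, a difference of -0.92 ± 0.39 (adjusted p = 0.149). Rrm1, the large subunit of ribonucleotide reductase, gave 2.92, 2.43 and 2.89 against 2.76, 1.68 and 1.496, a difference of -0.77 ± 0.35. Tk1, thymidine kinase, had -0.73 ± 0.36 and -0.74 on its second probe. Rrm2, the small subunit of the same reductase, is described because its values stood out. It gave 3.67, 3.14 and 3.47 on the controls and 4.18, 4.11 and 2.97 on the knockouts. Knockouts 1 and 2 were above all controls and knockout 3 below, and the difference of 0.32 ± 0.35 did not pass (adjusted p = 0.540). A single probe measured Rrm2, so no second probe could be set beside it.

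**Figure D2:**
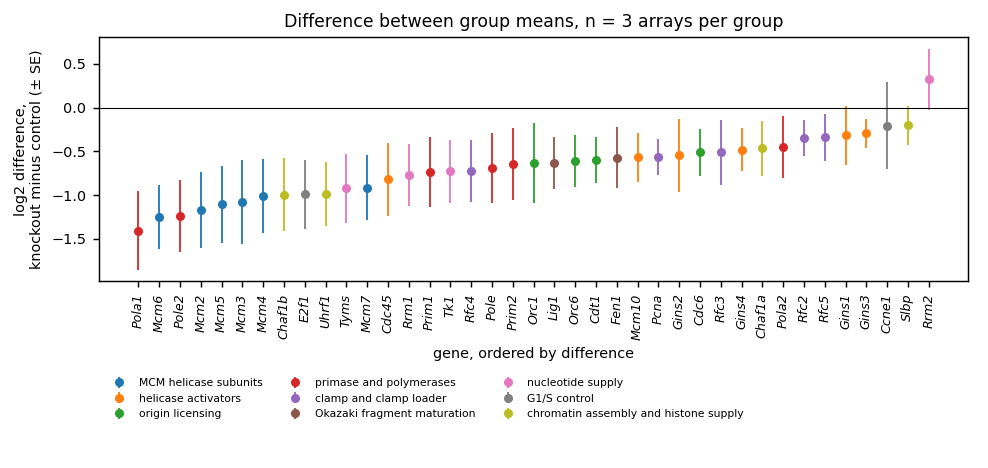
Difference in log2 signal between the means of the knockout and control arrays for each of the 39 genes, ordered by size, with standard errors from limma (n = 3 arrays per group) and coloured by role. Pola1 is lowest at -1.41, Rrm2 is the 1 gene above 0, and the Mcm2 to Mcm7 genes lie between -1.25 and -0.91.

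The regulators of entry into S phase differed among themselves. E2f1, the transcription factor that drives many of these genes, gave 0.28, -0.13 and -0.11 on the controls and -0.06, -1.40 and -1.49 on the knockouts, a difference of -0.99 ± 0.39 (adjusted p = 0.131). It thus had the same order of arrays as the helicase genes. Ccne1, the cyclin that activates Cdk2 at the start of S phase, gave 2.31, 1.91 and 2.14 against 3.14, 1.39 and 1.21. It was highest of all arrays on knockout 1 and lowest on knockouts 2 and 3, and its difference of -0.20 ± 0.50 did not pass (adjusted p = 0.796). The sign of the Ccne1 difference was positive without knockout 2 (0.06), without knockout 3 (0.15) and without both arrays with contradicting labels (0.07). Ccne2 was not tested, being well above background on 1 control and 1 knockout array. Its values were -3.74, -3.41 and -5.04 on the controls and -1.16, -5.60 and -6.82 on the knockouts, so knockout 1 was again the highest.

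Uhrf1 and the Chaf1 genes act on new chromatin behind the fork, and Slbp binds histone messages. Uhrf1, which brings the maintenance DNA methyltransferase to the daughter strands, gave 3.64, 3.18 and 3.62 on the controls and 3.31, 2.23 and 1.95 on the knockouts, a difference of -0.98 ± 0.37 (adjusted p = 0.115). Chaf1b, a subunit of the histone chaperone CAF-1, gave 3.16, 2.78 and 2.92 against 2.89, 1.84 and 1.15, a difference of -0.99 ± 0.42. Knockouts 2 and 3 were below the controls for both. Chaf1a, its partner, had -0.46 ± 0.32. Slbp had -0.20 ± 0.22 on its brighter probe and 0.03 on the other, the only gene whose probes differed in sign. In all, 16 of the genes had more than 1 usable probe, and 15 had the same sign on all of them.

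Groups that did not overlap were found for 5 of the 39 genes, Mcm6, Gins3, Pola1, Pole2 and Pcna, all lower in the knockout. Over all genes tested 20.7% were of that kind. Knockouts 2 and 3 taken alone were both below all controls for 36 of the 39 genes, as they were for 32.1% of all genes. The median difference was -0.47 on slide 1, which held knockouts 1 and 2, and -0.99 on slide 2. A block for slide left 0 of the 39 called in limma, where 9.38% of all genes were called lower.

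Further genes of replication, outside the 40, had the same order of arrays on average. Of 63 measured, 0 were called lower and 2 higher in limma, beside 7.62% and 7.27% of all genes. At an unadjusted p under 0.05, 11 were lower and 4 higher, beside 18% and 16.2% of all genes, so none of these counts exceeded the share over all genes. Their median was -0.52, and their mean deviation was 0.10, -0.57 and -0.77 on knockouts 1 to 3. Asf1a, a histone chaperone, gave -2.35, -2.35 and -2.67 on the controls and -2.77, -3.29 and -3.23 on the knockouts, a difference of -0.64 ± 0.20 (adjusted p = 0.0786). Dtl, which marks Cdt1 for destruction in S phase, gave 1.36, 0.88 and 0.97 against 0.79, -0.63 and -1.05, a difference of -1.37 ± 0.46 (adjusted p = 0.0924). The 2 called genes rose. Pold4, the smallest subunit of polymerase delta, gave 2.85, 2.84 and 2.90 on the controls and 3.87, 4.31 and 4.14 on the knockouts, a difference of 1.24 ± 0.17 (adjusted p = 0.00637). Donson, which helps load the helicase activators, gave 2.27, 2.03 and 2.31 against 2.96, 3.30 and 2.76, a difference of 0.80 ± 0.19 (adjusted p = 0.0390). On all 3 knockout arrays both were above every control. The polymerase delta subunits Pold1, Pold2 and Pold3 had differences of -0.66 ± 0.25, -0.85 ± 0.32 and -0.16 ± 0.16. Without both arrays with contradicting labels 0 of the 63 were called, where 1.06% of all genes were called lower. Without knockout 1, 39 were called (37 lower, 2 higher), where 17.2% of all genes were called lower. Without any other single array 0 were called lower, where 2.12% to 5.85% of all genes were, and 1 or 2 higher.

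Among 21 E2F, pocket protein and Myb or Myc factors, 2 fell and 0 rose, a share near the 7.62% of all genes called lower. Mycn, a growth-promoting Myc factor, gave 0.46, -0.77 and -0.30 on the controls and -2.05, -2.59 and -2.84 on the knockouts, a difference of -2.29 ± 0.36 (adjusted p = 0.0105). Rbl2, the pocket protein p130 that represses E2F targets in resting cells, gave -0.46, -0.60 and -0.69 against -1.19, -1.21 and -1.09, a difference of -0.58 ± 0.15 (adjusted p = 0.0446). For both genes all 3 knockout arrays, knockout 1 included, were below all controls. Without both arrays with contradicting labels neither was called, where 1.06% of all genes were called lower. Without single arrays 1 to 7 factors were called, all lower, where 2.12% to 17.2% of all genes were called lower. E2f3 and Rbl1 had all knockout values above all control values and did not pass (0.74 ± 0.26 and 0.47 ± 0.18).

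Genes of mitosis had, on average, the same order of arrays as the replication genes. All 26 had a negative difference, with a median of -0.57. In limma 0 were called, and 5 were lower at an unadjusted p under 0.05, a share near the 18% of all genes. Cenpf, a kinetochore protein, gave 1.56, 1.13 and 1.18 on the controls and 1.03, 0.41 and 0.05 on the knockouts, a difference of -0.80 ± 0.28. Kif11, a spindle motor, gave 0.31, -0.28 and -0.03 against -0.17, -1.23 and -0.97, a difference of -0.79 ± 0.31. Knockouts 2 and 3 were below all controls for both. The mean deviation of the 26 was 0.08, -0.73 and -0.95 on knockouts 1 to 3.

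Genes with symbols of replication-dependent histones, the class that packages new DNA, were low on all 3 knockout arrays. Whether each listed gene, H2bc21 included, depends on S phase was not tested. Of 42 measured, 20 fell and 0 rose, beside the 7.62% of all genes called lower. At an unadjusted p under 0.05, 35 were lower, beside 18% of all genes. The median was -0.86, and the mean deviation was 0.19, -0.08 and -0.12 for the 3 controls in order and -0.87, -0.88 and -1.03 for the knockouts. Knockout 1 was below all controls for 40 of the 42, knockout 2 for 41 and knockout 3 for 35. On knockout 1, where the replication genes were near the controls, the histone genes were thus as low as on knockout 2, and the difference between both lists was not tested.

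H2bc21, an H2B gene, gave 0.42, 0.68 and -0.02 on the controls and -1.83, -1.58 and -1.56 on the knockouts, a difference of -2.02 ± 0.22 (adjusted p = 0.00309). H1f1, a linker histone gene, gave 0.45, 0.03 and -0.26 against -1.63, -1.92 and -2.39, a difference of -2.05 ± 0.27 (adjusted p = 0.00597). No knockout value of either came near a control value. By class, 4 of 5 H1, 4 of 12 H2A, 2 of 10 H2B, 5 of 7 H3 and 5 of 8 H4 genes fell. For H4c8 and 5 H2B genes (H2bc1, H2bc3, H2bc4, H2bc14 and H2bc15) knockout 3 was above all controls, and in those 5 knockout 1 was the lowest array. Histone genes are near-identical copies of each other, so 1 probe may read several of them and the 42 are not separate measurements. The number called was 2 without both arrays with contradicting labels, where 1.06% of all genes were called lower. It was 2, 5 and 5 without controls 1 to 3, beside 2.12%, 2.61% and 2.69% of all genes. Without knockouts 1 to 3 it was 30, 9 and 7, beside 17.2%, 3.42% and 5.85% of all genes. The median stayed between -0.97 and -0.73 when single arrays were left out.

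**Figure D3:**
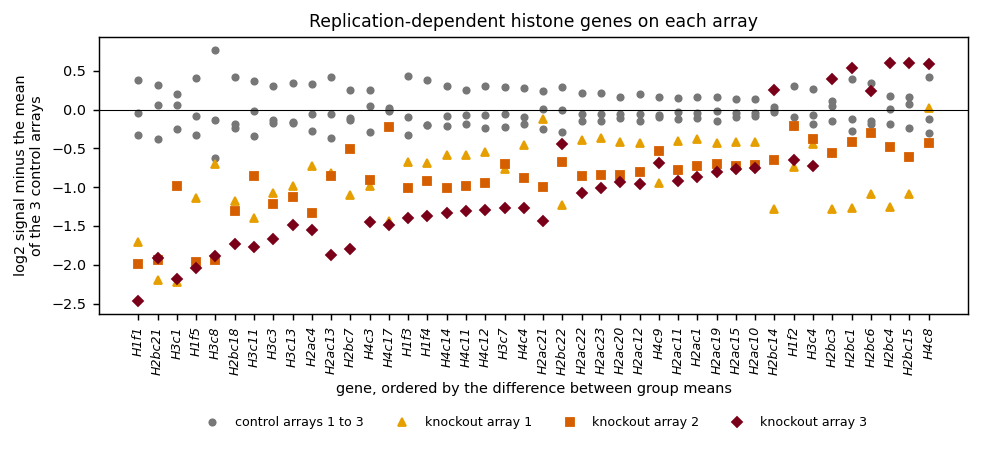
Log2 signal of each of the 42 histone genes minus the mean of its 3 control values, ordered by the difference between group means, with control arrays in grey and knockout arrays in colour. Knockout 1 lies below all controls for 40 genes.

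**Figure D4:**
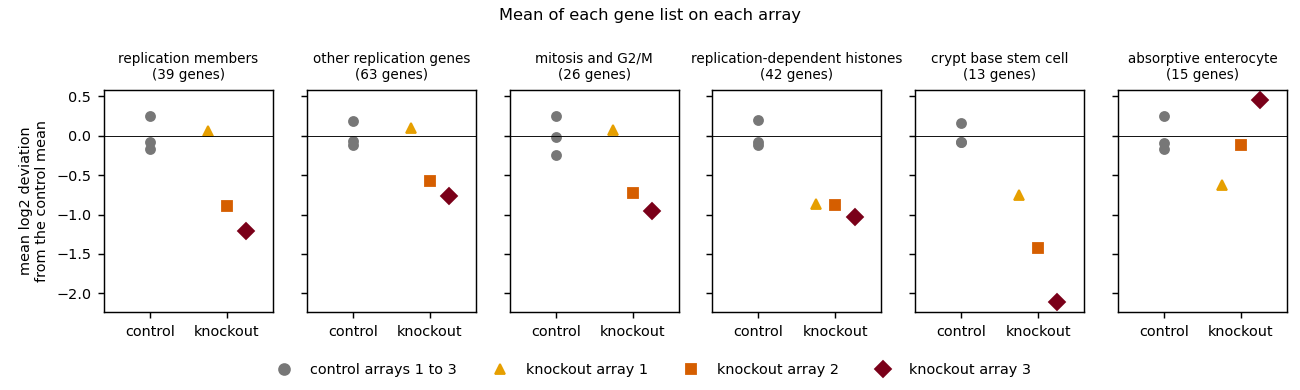
Mean log2 deviation from the control mean on each array for 6 gene lists; each point is 1 array, and the knockout arrays are set side by side for visibility. Knockout 1 lies at the control level for replication and mitosis genes and below it for histone and stem cell genes.

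Markers of other cells also differed between the arrays. The counts called below stand beside 7.62% of all genes called lower and 7.27% called higher. The 13 measured markers of crypt base stem cells (Lgr5, Smoc2, Ascl2 and others) had a mean deviation of -0.75, -1.43 and -2.11 on knockouts 1 to 3, the same order as the replication genes but with knockout 1 already low, and 4 of them fell (Prom1, Ascl2, Rgmb and Axin2). Their summed signal, relative to the 75th percentile, was 104 to 134 on control and 52.5 to 69.2 on knockout arrays. The 8 measured Paneth cell markers lay at -1.54, -1.87 and -3.66, with 6 called lower and 1 higher, and a summed signal of 841 to 1107 on control and 80.2 to 367 on knockout arrays. The 10 goblet cell markers lay at -0.92, -1.29 and -0.84, with 5 called lower, and sums of 1784 to 1873 and 842 to 1251. The 8 measured exocrine pancreas markers lay at -0.10, -1.39 and -1.79 beside -0.90, 0.61 and 0.29 on the controls, with 1 called lower, and sums of 9.60 to 13.2 and 7.93 to 10.3. Across the knockout arrays, the means of Paneth and pancreas markers thus descended from 1 to 3, like those of the replication genes and the myeloid markers given below. Paneth markers were already low on knockout 1, and in the pancreas list control 1 was below knockout 1. The 15 enterocyte markers had mean deviations of -0.62, -0.12 and 0.46, in which Lct, at -5.93, -6.81 and -2.55 and called lower, weighed heavily. Of these 15, 11 had a positive difference, the median was 0.29, and Slc2a5 was called higher. The 7 measured myeloid markers lay at 0.64, -0.07 and -0.33, with 2 called higher and 1 lower, and sums of 63.2 to 120.1 and 103 to 191. In these means Lyz2, the 1 called lower, weighed heavily, at -2.19, -2.98 and -5.12. Of the 7, 5 had a positive difference, and the median was 0.38. The 14 measured markers of T cells and intraepithelial lymphocytes lay at 1.33, -0.09 and 1.27, beside -0.99, 0.48 and 0.50 on controls 1 to 3. Of these 14, 13 had a positive difference, the median was 0.70, and 1 was called higher. The summed signal of the lymphocyte list was 37.1 to 129.9 on control and 50.8 to 134 on knockout arrays, and that of the enterocyte list 3815 to 4854 and 3279 to 6209. Of 11 fibroblast and muscle markers 8 were not well above background on any array, among them Col1a1, Col3a1 and Pdgfra, as were 3 of 6 endothelial markers. Of the 2 fibroblast and muscle markers that passed the filter, Acta2 was called higher (0.91 ± 0.24, adjusted p = 0.0479). It lay at 0.56, 1.03 and 1.16 on knockouts 1 to 3, and Tagln, the other, had a difference of -0.07 ± 0.35. The 3 measured endothelial markers lay at 0.54, 0.59 and 0.64, with 0 called. The part of these shifts in the replication gene values was not tested.

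The promoter windows of the replication genes, 250 bases before to 50 after the RefSeq start, often held E2F letters. Of the 40 genes 32 had a window in the RefSeq table, and 13 of these (40.6%) had at least 1 match to the 4 spellings given above, on either strand, overlapping matches included. The share was 4.46% of the 10787 tested genes with a window. Over all 27025 genes with a window, 704 had a match. For further replication genes the share was 29.4% of 51, for mitosis genes 4.55% of 22 and for histone genes 17.5% of 57. Median GC content was 60.0% in the windows of the replication genes and 59.7% in those of the tested genes.

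By role, 4 of 5 Mcm helicase genes, 3 of 4 licensing genes and 0 of 4 nucleotide supply genes had a match. Among genes that passed the filter, the 13 with a match had a median difference of -0.91 and the 19 without had -0.61, given here as a description. Differences ranged from -1.41 (Pola1) to -0.29 (Gins3) with a match and from -1.17 (Mcm2) to 0.32 (Rrm2) without. These are letter matches only.

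Mitosis genes instead often held the CHR letters TTTGAA or TTCGAA, an element known from genes of G2 and M phase, with 77.3% against 47.4% of histone genes, 18.8% of replication genes and 17.1% of tested genes. CCAAT was found in 81.8% of mitosis, 59.4% of replication and 43.0% of tested genes. Histone windows held TATAAA in 59.6%, against 6.25% of replication genes and 10.3% of tested genes, and CCAAT in 86.0%. Median GC content in the histone windows was lower, at 45.3%, and its part in their CHR and TATAAA shares was not tested. As an example of a histone gene that fell, the 200 bases before the start of H1f5 (chr13:21780626-21780825, minus strand, GRCm38.p6) are given with CCAAT, on either strand, and TATAAA in capitals. H1f5, a linker histone gene, had a difference of -1.72 ± 0.31 (adjusted p = 0.0164).
H1f5: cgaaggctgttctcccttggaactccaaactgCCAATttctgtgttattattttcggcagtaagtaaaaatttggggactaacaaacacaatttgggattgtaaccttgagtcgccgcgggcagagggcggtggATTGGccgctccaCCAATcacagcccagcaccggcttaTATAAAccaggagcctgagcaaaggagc

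**Figure D5:**
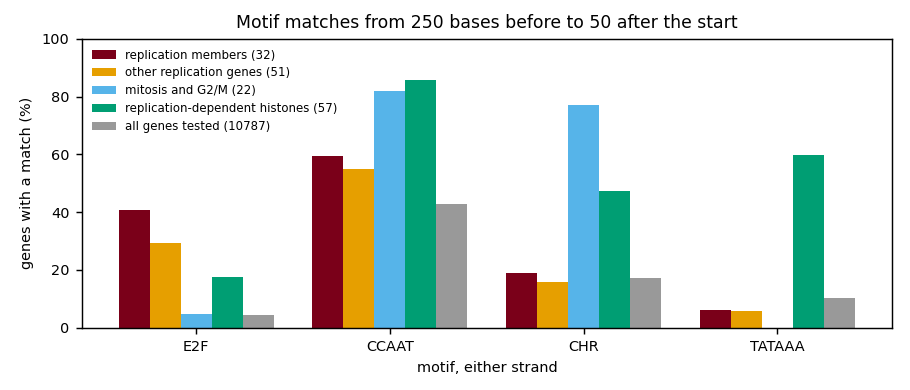
Share of genes with at least 1 match to each motif, on either strand, from 250 bases before to 50 bases after the RefSeq start; the number of genes with a window is given for each list. E2F letters are in 40.6% of the replication genes and 4.46% of tested genes, and CHR letters in 77.3% of mitosis genes.

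Some replication genes share their start region with a gene on the other strand. Of the 32 genes 7 had such a neighbour, of which 6 were tested and 0 called. The neighbour starts lay within 1000 bases upstream, except that of Afmid, at -95 bases, just downstream of the Tk1 start. Ap4m1, head to head with Mcm7 at 138 bases, had a difference of 0.49 ± 0.19 where Mcm7 had -0.91, and Ufd1, next to Cdc45, had 0.36 ± 0.16 where Cdc45 had -0.82. For both neighbours all knockout values were above all control values, and neither passed the test. Zswim9, next to Lig1, lay below all controls on every knockout array, at -0.62 ± 0.18 (adjusted p = 0.0658) beside -0.63 for Lig1. The other 3 tested neighbours, Tmem258 next to Fen1, Prpf38a next to Orc1 and Afmid next to Tk1, lay between -0.01 and 0.06.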

How the data were processed

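Cy3-labelled RNA of 6 crypt samples was measured on Agilent arrays, per the labels' protocols. Per the file headers, the deposited spot intensity came from Feature Extraction 12.0.3.1 and is background-subtracted within an array. The submitters' processing notes name release 11.5.1.1. The deposited table of the whole series, used as an alternative, is in log2 units. Differences between its arrays matched those of the scanner values after 75th percentile scaling, and each probe is centred on its median over the 6 arrays. Its column medians were 0.20, 0.06 and -0.32 (controls in order) and -0.07, 0.21 and -0.18 (knockouts). Deposited 0 or 1 flags gave background, saturation and outlier calls.

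Agilent control spots and any spot with an outlier flag were dropped. Log2 processed signals of a probe's spots were averaged and the array's 75th percentile subtracted. Accessions, without their versions, were looked up in a RefSeq table (GRCm38.p6), which gave a symbol to 33762 of 56605 probes. The array design is on another build (mm9), so coordinates are given only for RefSeq promoters. Probes well above background on at least 3 arrays were kept, and the brightest kept probe of a gene was fitted by group in limma 3.58.1 under R 4.3.3 (two-sided). The fit was tested on simulated data. Replicate numbers were not taken to pair samples, because the labels do not say that they do. Deviations of same-numbered arrays correlated at 0.246, 0.0797 and 0.352, above those of differently numbered arrays (-0.281 to 0.0205). The result depends on this choice: a block for replicate called 4 of the 39 replication genes, where 10.4% of all genes were called lower.

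The genes and lists were chosen with earlier results of these data known. Arrays are given in full for the 2 genes of each role with the smallest p (3 in roles of 6 genes), for genes whose groups did not overlap and for Pcna, E2f1, Ccne1, Ccne2 and Mcm10, and for the 2 with the smallest p, in the direction most of the list took, of each further gene list, with every called gene of lists with at most 5. Marker lists are given as sums and means. Other genes named, among them Orc1, Rrm2, Pold1, Pold2, E2f3, Rbl1 and H1f5, were chosen after their values were seen.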

Additional observations from a re-analysis of the deposited data

How the results depend on the processing

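The median difference of the replication genes was negative under every alternative run, from -1.09 without knockout 1 to -0.14 with groups by source name and genotype, where 0 of all genes passed in limma. Leaving out single arrays moved it between -1.09 and -0.40. The number of replication genes called was 0, and ranged from 0 to 30 when single arrays were left out. In those fits 2.12% to 17.2% of all genes were called lower. It was 4 with the replicate block, where 10.4% of all genes were called lower, and 22 with array weights, where 18.9% were. At an adjusted p under 0.1 it was 3, where 3444 of the 13496 genes tested were called in either direction. It was 1 with the array median, the mean or median of kept probes, or trend and robust. In those fits 7.68% to 10.3% of all genes were called lower. That 1 gene was Mcm6 each time, and the replicate block called Mcm6, Pola1, Pole2 and Tyms. The weights were lowest for knockout 1, at 0.369, and highest for knockout 2, at 2.02.

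The lists below were put through the same alternatives after seeing the data. Grouped by source name and genotype, the number called was 0 for further replication genes, E2F and Myb factors, and histone genes. Leaving out control 3 and knockout 2 together gave 0, 0 and 2, and slide 1 alone 0, 0 and 2. In these fits 1.06% and 2.74% of all genes were called lower. With no filter it was 1 (higher), 1 and 2, where 1.41% of all genes were called lower. Array weights gave 33 (29 lower, 4 higher), 7 and 31, with 11 mitosis genes, where 18.9% of all genes were called lower. The replicate block gave 5 further replication genes (4 lower, 1 higher), 1 factor and 3 mitosis genes, where 10.4% of all genes were called lower. At an adjusted p under 0.1 there were 8 further replication genes, 32 histone genes and 1 mitosis gene. Of the 13496 genes tested, 3444 were called at that threshold in either direction. The array median left 1 further replication gene (higher), where 10.3% of all genes were called lower. Normexp, or trend and robust, left 1 factor, where 8.72% and 8.45% were. Leaving out single arrays gave 1 to 39, 1 to 7, 2 to 30 and, for mitosis, 0 to 18, where 2.12% to 17.2% of all genes were called lower.

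Signs turned for genes with small or uneven differences. By source name and genotype the differences were 0.20 for Cdc45, 0.0116 for Mcm10, 0.0636 for Cdc6, 0.18 for Pola2, 0.0390 for Rrm1, 0.29 for Ccne1, 0.0823 for Chaf1a and -0.10 for Rrm2. On slide 2 Rrm2 was at -0.50, and on slide 1 Ccne1 at 0.16. Ccne1 was at 0.0656 without control 3 and knockout 2, and between -0.82 (without knockout 1) and 0.15 (without knockout 3) when single arrays were left out, with 0.0561 without knockout 2. The cause was not tested. With the array median the median of all genes shifted to -0.26 and that of the replication genes to -0.88, and 28.7% of called genes were higher instead of 48.8%. Genes near background, such as Ccne2, are limited by signal.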
